A study of Mus musculus with 9 samples.

Results

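Growth factors, cytokines, chemokines and their receptors were followed as a group of genes in RNA sequencing of sorted mouse skeletal stem and stromal cells. Members were the protein-coding genes of the deposited table that carry no transcription factor family and whose symbol begins with Fgf, Bmp, Tgfb, Gdf, Wnt, Fzd, Igf, Pdgf, Vegf, Notch, Eph, Efn, Sema, Plxn, Ccl, Ccr, Cxcl, Cxcr, Il and a digit, Tnf or Csf, except Il1rn. This rule used names and no measured value, and it held for 59 of the 8329 genes in the table. By the role assigned to each, 30 of the 59 were ligands, 25 were receptors and 1 was a binding protein. The other 3 (Tnfaip3, Tnfaip8 and Tnfaip8l2) shared only the name and encode intracellular proteins. Fgf11 and Fgf14, counted among the ligands but too low to be tested, also encode intracellular proteins. Family members outside the table were not analysed here.

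All cells came from adult wild type mice of the C57BL/6J strain and were sorted as CD51+CD200+ cells after blood and endothelial cells had been gated out. BM-MSCs came from bone marrow on day 0 and P-SSCs from periosteum, the sheet of tissue that covers bone, also on day 0, without transplantation. Graft P-SSCs came from the periosteum of femurs on day 3 after the whole bone had been transplanted under the skin of a recipient mouse. Each group had 3 libraries from distinct mice, and by their labels replicate 2 of BM-MSCs and replicate 2 of P-SSCs each joined a pair of preparations. Periosteum was digested for longer than marrow, so tissue and digestion cannot be told apart in comparisons with BM-MSCs, and day 3 and transplantation cannot be told apart in comparisons of graft P-SSCs with P-SSCs. The labels do not say whether the sorted graft cells came from the donor bone or from the host.

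Secreted ligands of these families act by binding receptors on the surface of the same or neighboring cells. In bone, BMPs, FGFs, WNTs and Notch receptors are known for directing skeletal progenitors toward cartilage, bone or fat, and marrow stromal cells are known as a source of cytokines and chemokines that hold or recruit blood cells. CXCL1 and CXCL2 attract neutrophils through the receptor CXCR2, and IL-6 signals through the shared receptor subunit gp130, which Il6st encodes.

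Levels are given as FPKM, in which a gene's fragments are scaled to its length and to the library total, so that genes of different length may be compared. Scaling to the total does not remove differences in composition between libraries, so calls that another scaling changes are given with it. The library totals recovered from these values lay between 16890241 and 21315438 fragments. The table held 4 of 19 leukocyte marker genes fixed beside the members (Ptprc, Lyz2, Mpo and Cd79b), 1 of 8 erythroid genes (Hba-a2), 1 of 12 stromal genes (Postn) and 0 of the endothelial, muscle, chondrocyte and osteoblast genes, and the other markers were not analysed here. The summed level of the leukocyte genes was 439 to 617 FPKM in BM-MSC libraries, 14.2 to 71.9 in P-SSCs and 26.6 to 85.9 in graft P-SSCs, and none of the 4 was at 0 in every library. Hba-a2 was at 618 to 2200.5 FPKM in BM-MSCs, 2.13 to 20.2 in P-SSCs and 0.531 to 3.67 in graft P-SSCs, and Postn was at 90.6 to 125, 391 to 476 and 782 to 879 FPKM. The part of these blood cell RNAs in the differences between BM-MSCs and the other groups was not tested, and in bulk samples fewer cells of a type and less RNA per cell cannot be told apart.

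Of the 59 members, 6 were listed at 0 in every library, 22 were above 0 but too low to be tested and 31 were tested, because they reached 1 FPKM in at least 3 of the 9 libraries. Groups were compared with limma on log2(FPKM + 1) in a fit of the 1948 genes that passed this filter, and a gene counted as called where its p, adjusted over all 1948 genes by the Benjamini-Hochberg method, was under 0.05. Differences on this scale understate the change of genes near 0. A gene that passes the filter through a group where it is high tends to differ between groups, so the counts over the 31 members tested are descriptions. The map of levels gives each of the 31 in every library.

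**Figure D1:**
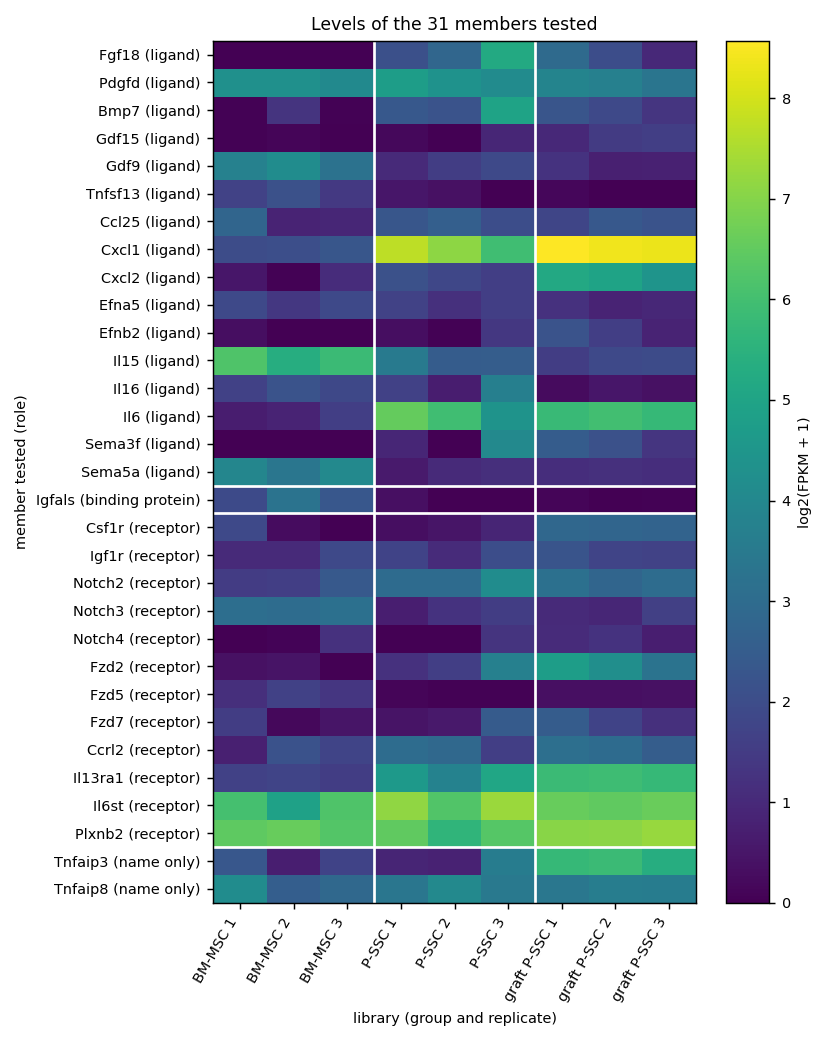
Level of each of the 31 members tested (rows, with their role) in each of the 9 libraries (columns, group and replicate), colored by log2(FPKM + 1). Cxcl1, Il6 and Il13ra1 are bright in P-SSCs and graft P-SSCs and dark in BM-MSCs, Il15, Sema5a and Gdf9 show the opposite, and Plxnb2 and Il6st are bright in every library.

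The highest mean levels over the 9 libraries belonged to Cxcl1 at 162 FPKM, Plxnb2 at 98.9, Il6st at 91.0, Il6 at 38.5 and Il13ra1 at 27.2. Of these, Plxnb2 and Il6st, which both encode receptors, were at 28.8 FPKM or more in every library.

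Among P-SSC libraries, replicate 3 stood apart. It lay more than 1 log2 unit above the mean of replicates 1 and 2 for 10 of the 31 members tested and more than 1 unit below it for 3, whereas replicates 1 and 2 were more than 1 unit apart for 1 member. Replicate 3 was higher for Sema3f, Tnfaip3, Fgf18, Bmp7, Il16, Fzd2, Fzd7, Notch4, Efnb2 and Notch2, and lower for Il6, Cxcl1 and Ccrl2. The same count was not made over all genes tested, so this spread is not shown to be particular to the members. Because replicate 3 stood apart, counts of calls are also given without it.

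**Figure D2:**
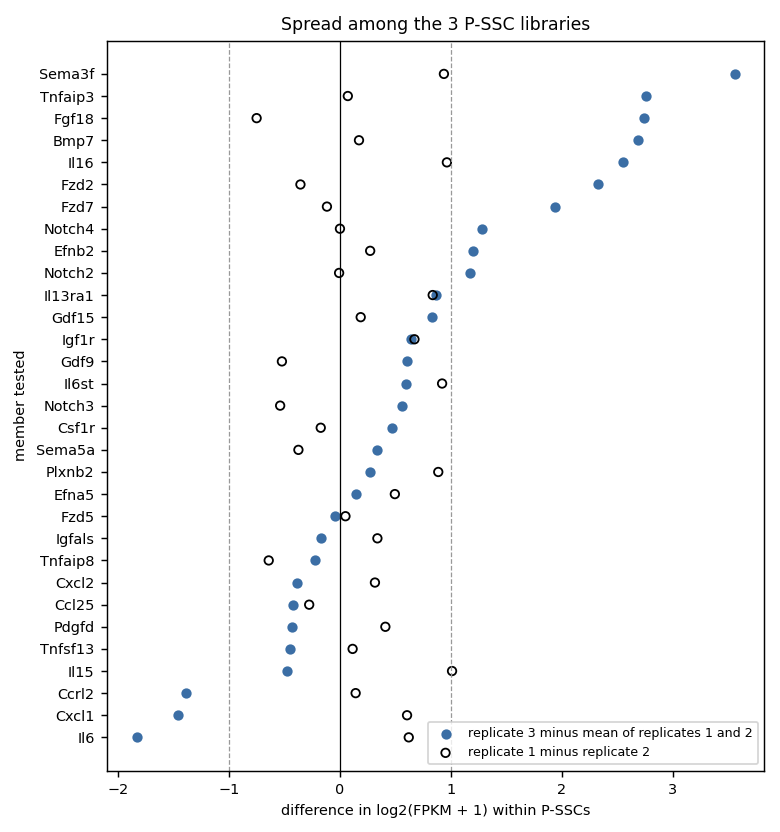
Spread among the 3 P-SSC libraries for the 31 members tested, as differences in log2(FPKM + 1). Filled points give replicate 3 minus the mean of replicates 1 and 2, open points give replicate 1 minus replicate 2, and dashed lines mark a difference of 1; 10 filled points lie to the right of the lines and 3 to the left.

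At steady state, P-SSCs differed from BM-MSCs in 15 of the 31 members tested, which is 48.4% of them beside 24.2% of all genes tested. The inflammatory ligands Cxcl1, Cxcl2 and Il6, the growth factors Fgf18 and Bmp7 and the receptors Il13ra1, Il6st and Notch2 were the 8 called higher in P-SSCs, beside 9.80% of all genes. The ligands Il15, Sema5a, Gdf9 and Tnfsf13, the receptors Notch3 and Fzd5 and the binding protein Igfals were the 7 called lower, beside 14.4% of all genes. The median log2 difference was 0.32 over the members tested and -0.06 over all genes tested. The libraries of these groups did not overlap for 16 of the 31 members, beside 32.1% of all genes. Without P-SSC replicate 3, 15 members were again called, beside 30.4% of all genes, with Ccrl2 among them (log2 difference 1.41, adjusted p = 0.0316) and Il6st no longer.

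Between P-SSCs and graft P-SSCs, 10 of the 31 members were called, which is 32.3% and close to the 34.1% of all genes. Cxcl1, Cxcl2, Il13ra1, Plxnb2, Fzd2, Csf1r, Gdf15 and Tnfaip3 were the 8 called higher in graft P-SSCs, beside 22.6% of all genes, and Il15 and Pdgfd were the 2 called lower, beside 11.5%. The median log2 difference was 0.21 over the members tested and 0.26 over all genes tested, and the libraries did not overlap for 11 members, beside 50.6% of all genes. The median over all genes was 0.02 after median-of-ratios scaling of the libraries, which called 6 members higher and 2 lower, beside 31.5% of all genes. It was -0.08 after quantile normalization, which called 7 higher and 5 lower, beside 34.2%. Without P-SSC replicate 3, 14 members were called, 12 higher and 2 lower, beside 45.8% of all genes. The 4 added, all higher in graft P-SSCs, were Sema3f, Efnb2 (log2 difference 1.36, adjusted p = 0.012), Fzd7 (1.29, adjusted p = 0.0479) and Notch4 (1.01, adjusted p = 0.0469).

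Graft P-SSCs against BM-MSCs, which share their libraries with the comparisons above, gave 18 calls among the 31 members, or 58.1% beside 41.9% of all genes. Of these, 11 were higher in graft P-SSCs (25.7% of all genes) and 7 were lower (16.2%), and the libraries did not overlap for 26 members, beside 64.5% of all genes. The median log2 difference was 0.84 over the members tested and 0.28 over all genes tested. With median-of-ratios scaling 9 members were called higher and 9 lower, beside 38.6% of all genes, and with quantile normalization 9 higher and 10 lower, beside 40.7%. Without P-SSC replicate 3, which enters neither mean here, 25 members were called, 15 higher and 10 lower, beside 53.3% of all genes.

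**Figure D3:**
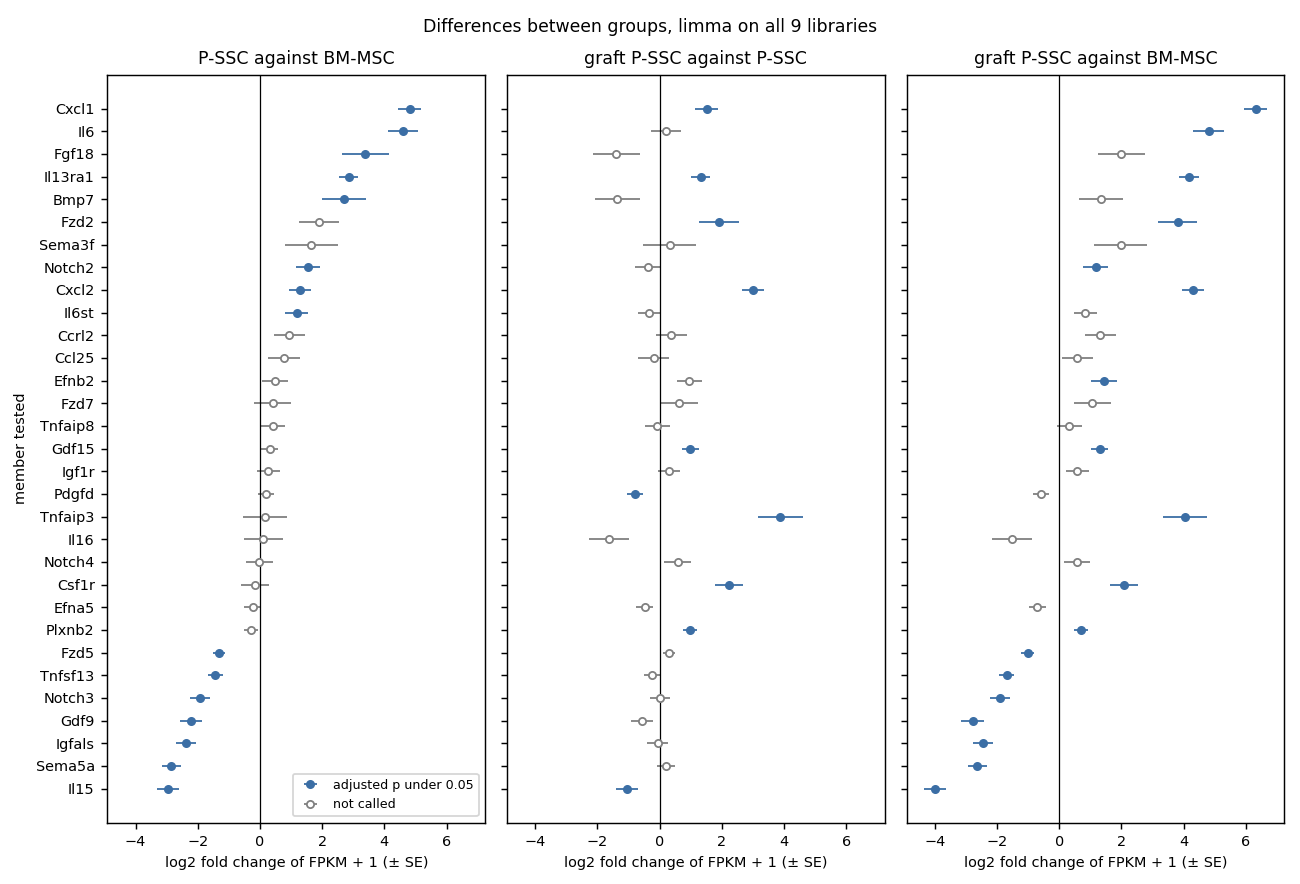
Log2 difference of FPKM + 1 (points) with its standard error (bars) for the 31 members tested in each comparison, ordered by the difference between P-SSCs and BM-MSCs. Filled points have an adjusted p under 0.05, and they number 15, 10 and 18 from left to right.

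Cxcl1 (chr5:90891241-90893115 in GRCm38), a neutrophil chemokine, had the largest log2 difference of the 31 members between graft P-SSCs and BM-MSCs. Its level was 2.98, 3.16 and 3.92 FPKM in BM-MSC replicates 1, 2 and 3, the order kept for all values that follow, 209, 137 and 60.8 in P-SSCs and 380, 337 and 321 in graft P-SSCs. No library of a group overlapped another group, and the spread was widest in P-SSCs. The mean was 40.5-fold higher in P-SSCs than in BM-MSCs (log2 difference 4.81 ± 0.37 SE, limma adjusted p = 1.44e-05) and 2.55-fold higher in graft P-SSCs than in P-SSCs (1.51 ± 0.37, adjusted p = 0.0114). Without P-SSC replicate 3, these log2 differences were 5.30 and 1.02, with adjusted p of 2.09e-07 and 0.00289. The call between graft P-SSCs and P-SSCs was lost with median-of-ratios scaling (log2 difference 1.19, adjusted p = 0.0514), and between graft P-SSCs and BM-MSCs the log2 difference was 6.32 ± 0.37 (adjusted p = 1.76e-06).

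Cxcl2 (chr5:90903871-90905938), the neighboring chemokine gene with the same receptor, was highest in graft P-SSCs. It was at 0.436, 0.0392 and 1.13 FPKM in BM-MSCs, 3.39, 2.53 and 2.02 in P-SSCs and 34.8, 30.1 and 20.9 in graft P-SSCs, and the lowest BM-MSC value stood for 1 fragment. The 3 groups did not overlap, and the graft libraries lay well above the rest. The mean was 10.8-fold higher in graft P-SSCs than in P-SSCs (log2 difference 3.01 ± 0.36, limma adjusted p = 0.00024). The smaller difference between P-SSCs and BM-MSCs (1.29 ± 0.36, adjusted p = 0.0262) lost its call under 7 of 18 other settings, among them voom on recovered fragments (0.0594), only the libraries compared (0.0595) and the removal of BM-MSC replicate 1 (adjusted p = 0.0662), BM-MSC replicate 2 (0.0744), P-SSC replicate 1 (0.0789) or graft P-SSC replicate 2 (0.0522).

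Il6 (chr5:30013114-30019981), which encodes a cytokine of acute inflammation, was low in marrow cells and high in both periosteal groups. Its level was 0.604, 0.792 and 2.02 FPKM in BM-MSCs, 92.8, 60.02 and 20.3 in P-SSCs and 55.3, 62.5 and 52.0 in graft P-SSCs. P-SSC libraries lay on both sides of the graft libraries, and every periosteal library was above every marrow library. The mean was 50.7-fold higher in P-SSCs than in BM-MSCs (log2 difference 4.59 ± 0.49, limma adjusted p = 8.44e-05, and 5.20 without P-SSC replicate 3). Under the 18 other settings this log2 difference lay between 4.13 and 5.58 and kept its call. Between graft P-SSCs and P-SSCs the log2 difference was 0.21 ± 0.49, which was not called (adjusted p = 0.769).

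The sequences before these 3 genes are shown because Cxcl1 and Cxcl2 were among the ligands with the largest differences and Il6 was the interleukin gene with the largest difference between P-SSCs and BM-MSCs. The RefSeq starts of Cxcl1 and Cxcl2 are 12654 bases apart on the same strand of chromosome 5. The 250 bases before each RefSeq start (GRCm38.p6, plus strand) were searched on both strands for GGGA, any base and TTTCC in a row, a form of the site known to bind NF-kB, and matches are in capitals. Both the motif and the sequence of Il6 were chosen after the sequences and values had been seen.
Cxcl1, chr5:90890995-90891244: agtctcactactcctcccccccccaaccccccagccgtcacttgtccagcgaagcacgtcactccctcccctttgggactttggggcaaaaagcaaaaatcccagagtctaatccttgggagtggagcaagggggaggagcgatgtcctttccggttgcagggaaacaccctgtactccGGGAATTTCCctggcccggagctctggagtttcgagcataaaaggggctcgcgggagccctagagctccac
Cxcl2, chr5:90903649-90903898: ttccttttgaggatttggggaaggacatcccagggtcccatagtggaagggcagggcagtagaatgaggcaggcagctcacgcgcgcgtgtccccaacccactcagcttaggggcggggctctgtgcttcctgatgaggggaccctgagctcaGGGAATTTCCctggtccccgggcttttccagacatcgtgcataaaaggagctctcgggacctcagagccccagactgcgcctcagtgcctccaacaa
Il6, chr5:30012864-30013113: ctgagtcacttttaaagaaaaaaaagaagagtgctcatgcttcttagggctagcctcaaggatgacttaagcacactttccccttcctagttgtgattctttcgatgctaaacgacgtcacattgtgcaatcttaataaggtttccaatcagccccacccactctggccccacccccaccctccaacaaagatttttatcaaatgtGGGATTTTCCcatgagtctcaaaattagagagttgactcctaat
Each window holds 1 match, which ends 61 bases before the start in Cxcl1, 87 in Cxcl2 and 34 in Il6. Of the 24 members tested that have a window, only these 3 held a match, as did Ccr3 among the members not tested, and the Fgf18 window held none. Among all 27025 windows, 91 held a match (0.337%). As the motif was chosen with these sequences seen, the 3 matches were fixed in advance and these counts are no test. A match is a run of letters and was not measured as a binding site.

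Il15 and Gdf9 were ligands with the opposite order. Il15 (chr8:82331632-82403222), a cytokine that sustains natural killer and memory T cells, was at 74.0, 39.3 and 56.4 FPKM in BM-MSCs, 10.4, 4.66 and 4.78 in P-SSCs and 1.96, 2.69 and 2.90 in graft P-SSCs. The groups did not overlap. The mean was 8.55-fold higher in BM-MSCs than in P-SSCs (log2 difference -2.95 ± 0.35, limma adjusted p = 0.000192) and 22.5-fold higher than in graft P-SSCs (-4.00 ± 0.35, adjusted p = 2.37e-05). The step from P-SSCs to graft P-SSCs (-1.04 ± 0.35, adjusted p = 0.046) was lost under 10 of 18 other settings, among them the removal of P-SSC replicate 1 (adjusted p = 0.151), of any graft library (0.0883 to 0.146) and of BM-MSC replicate 1 or 3 (0.0521 and 0.066).

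Gdf9 (chr11:53431023-53437904), a TGF-beta family ligand best known from the oocyte, was at 12.5, 16.9 and 8.33 FPKM in BM-MSCs, 1.05, 1.95 and 2.73 in P-SSCs and 1.37, 0.703 and 0.706 in graft P-SSCs. Marrow libraries were apart from all periosteal libraries, which overlapped each other. The mean was 6.59-fold higher in BM-MSCs than in P-SSCs (log2 difference -2.21 ± 0.36, limma adjusted p = 0.00139). Between graft P-SSCs and BM-MSCs the log2 difference was -2.79 ± 0.36 (adjusted p = 0.000257), and between graft P-SSCs and P-SSCs it was -0.57 ± 0.36, which was not called.

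Sema5a (chr15:32244810-32696341), a membrane-bound semaphorin of axon guidance, was also higher in marrow cells. It was at 14.3, 9.31 and 15.3 FPKM in BM-MSCs, 0.549, 1.01 and 1.22 in P-SSCs and 1.197, 1.25 and 1.16 in graft P-SSCs. Its mean was 14.0-fold higher in BM-MSCs than in P-SSCs (log2 difference -2.84 ± 0.30, limma adjusted p = 7.95e-05), and the periosteal groups overlapped. Igfals, which encodes the subunit that holds IGFs in a stable complex in blood, had a log2 difference of -2.39 ± 0.33, and Tnfsf13, the B cell survival factor APRIL, of -1.44 ± 0.24, both between P-SSCs and BM-MSCs (limma adjusted p = 0.000479 and 0.00165). The calls of Il15, Gdf9, Sema5a, Igfals and Tnfsf13 between P-SSCs and BM-MSCs were kept under each of the settings tried in which the gene was tested. Igfals and Tnfsf13 reached 1 FPKM only in BM-MSC libraries and passed the filter through them, so their calls are descriptions. The summed leukocyte and Hba-a2 levels given above were also higher in all BM-MSC libraries.

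Fgf18 and Bmp7 were called higher in P-SSCs than in BM-MSCs, with levels that rested largely on P-SSC replicate 3. Fgf18 (chr11:33117430-33147400), a growth factor of cartilage and bone formation, was at 0 in all 3 BM-MSC libraries, at 3.27, 6.18 and 36.0 FPKM in P-SSCs and at 6.86, 3.12 and 0.965 in graft P-SSCs. Counting a floor of 3 fragments in each BM-MSC library, its mean was at least 94.1-fold higher in P-SSCs and at least 22.7-fold higher in graft P-SSCs. These bounds are 29.3-fold without P-SSC replicate 3 and 12.7-fold without graft P-SSC replicate 1. The fitted log2 difference between P-SSCs and BM-MSCs was 3.38 ± 0.75 (limma adjusted p = 0.00867), and 2.47 without P-SSC replicate 3 (adjusted p = 0.0049). Graft P-SSCs were not called against BM-MSCs (1.997 ± 0.75, adjusted p = 0.0575), but were without P-SSC replicate 3 (0.00476), without P-SSC replicate 1 (0.0419) or without graft P-SSC replicate 3 (0.0445), and with all libraries with a pseudocount of 0.1 (0.00363) or voom (0.0079).

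Bmp7 (chr2:172868012-172940321), a bone morphogenetic protein, was at 0.0255, 1.46 and 0.0471 FPKM in BM-MSCs, 4.14, 3.56 and 30.2 in P-SSCs and 3.75, 2.72 and 1.48 in graft P-SSCs. P-SSC libraries were all above the BM-MSC libraries, and replicate 3 was far above the others. The log2 difference between P-SSCs and BM-MSCs was 2.70 ± 0.71 (limma adjusted p = 0.0194), and 1.81 without P-SSC replicate 3 (adjusted p = 0.0113). The call was lost under 4 of the 17 other settings that tested it, among them the removal of BM-MSC replicate 1 (adjusted p = 0.0751) or replicate 3 (0.0706). Neither Fgf18 nor Bmp7 was called between graft P-SSCs and P-SSCs, with log2 differences of -1.38 ± 0.75 and -1.35 ± 0.71, which shrank to -0.47 and -0.46 without P-SSC replicate 3. With quantile normalization Bmp7 was called lower in graft P-SSCs than in P-SSCs (-1.78, adjusted p = 0.04996). Bmp7 was called in graft P-SSCs against BM-MSCs only without P-SSC replicate 3 among the removals of 1 library (log2 difference 1.35, adjusted p = 0.0162, against 0.152 with all libraries).

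Gdf15, a ligand known to be induced by cell stress, stayed low but was called higher in graft P-SSCs, where it was at 1.01, 1.80 and 2.02 FPKM, against 0.138, 0 and 0.8997 in P-SSCs and 0.0405, 0.0727 and 0 in BM-MSCs. Gdf15 reached 1 FPKM only in graft libraries and passed the filter through them, so its calls are descriptions. The log2 difference was 1.31 ± 0.28 from BM-MSCs (limma adjusted p = 0.00483) and 0.99 ± 0.28 from P-SSCs (adjusted p = 0.0209). The latter call was lost under 5 of the 17 other settings that tested it, namely voom and the removal of P-SSC replicate 1 (0.0729), P-SSC replicate 2 (0.0672), graft P-SSC replicate 2 (0.0751) or graft P-SSC replicate 3 (0.0748).

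Pdgfd (chr9:6168584-6378850), a platelet-derived growth factor that acts on mesenchymal cells, was expressed in all groups. It was at 18.9, 18.8 and 15.7 FPKM in BM-MSCs, 26.5, 19.7 and 16.7 in P-SSCs and 13.7, 12.2 and 9.03 in graft P-SSCs, so the graft libraries were the lowest. The log2 difference between graft P-SSCs and P-SSCs was -0.79 ± 0.25 (limma adjusted p = 0.0353). This call was lost under 6 of 18 other settings, among them the removal of P-SSC replicate 1 (0.125), P-SSC replicate 2 (0.0611) or any graft library (0.0568 to 0.145). Between graft P-SSCs and BM-MSCs the log2 difference was -0.59 ± 0.25 (adjusted p = 0.0867, and 0.0486 without P-SSC replicate 3, 0.0417 with median-of-ratios scaling and 0.0295 with quantile normalization).

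**Figure D4:**
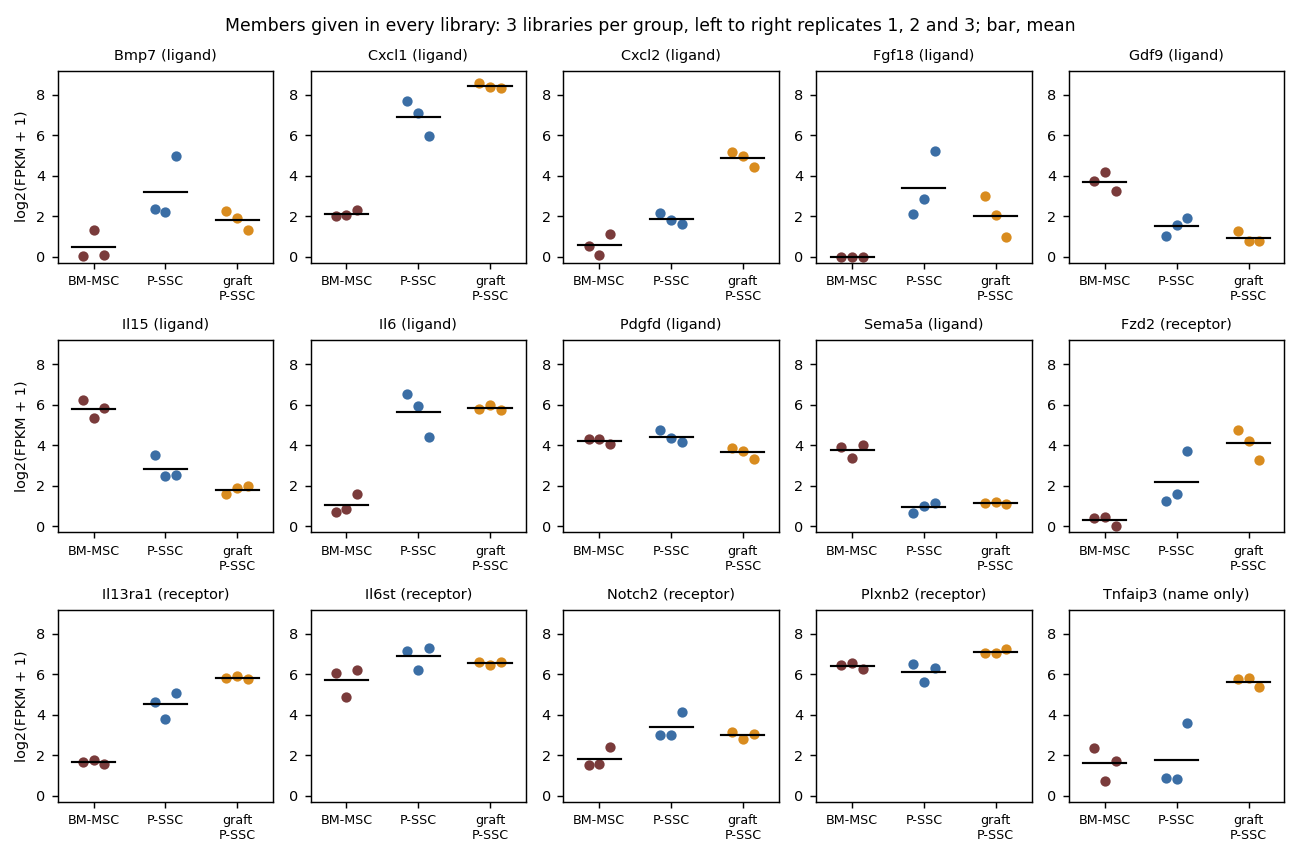
Levels of the 15 members given in every library, as log2(FPKM + 1), with 1 point per library (replicates 1, 2 and 3 from left to right in each group) and a bar at the mean of the group. Cxcl1 and Il13ra1 step up from BM-MSCs to P-SSCs to graft P-SSCs without overlap, Il15 steps down, and Fgf18, Bmp7 and Tnfaip3 have 1 P-SSC library far above the other two.

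Among receptors, Il13ra1 (chrX:36112110-36171259) had no overlap among the 3 groups. It encodes a chain of the receptor for IL-13 and IL-4. Il13ra1 was at 2.17, 2.38 and 1.93 FPKM in BM-MSCs, 24.0, 13.0 and 33.0 in P-SSCs and 56.4, 58.5 and 53.0 in graft P-SSCs. The mean rose 10.8-fold from BM-MSCs to P-SSCs (log2 difference 2.86 ± 0.31, limma adjusted p = 0.000101) and was 2.40-fold higher in graft P-SSCs than in P-SSCs (1.32 ± 0.31, adjusted p = 0.00964). Both calls were kept under all 18 other settings.

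Il6st (chr13:112464070-112510086), which encodes gp130, was abundant in every group. It was at 64.9, 28.8 and 72.8 FPKM in BM-MSCs, 142, 74.4 and 156 in P-SSCs and 95.8, 88.4 and 96.1 in graft P-SSCs. The highest BM-MSC library and the lowest P-SSC library were close, and the graft libraries lay within the range of P-SSCs. The log2 difference between P-SSCs and BM-MSCs was 1.18 ± 0.37 (limma adjusted p = 0.0418), and it lost its call under 10 of 18 other settings, among them the removal of P-SSC replicate 3 (0.98, adjusted p = 0.0825), of P-SSC replicate 1 (0.125), of BM-MSC replicate 1 (0.058) or 2 (0.113) and of any graft library (0.064 to 0.0664). The ligand gene Il6 differed far more between P-SSCs and BM-MSCs, in log2 units, than the shared receptor gene Il6st, and these differences were not tested against each other.

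Plxnb2 (chr15:89155549-89180788), which encodes a plexin that binds class 4 semaphorins, was the receptor with the highest mean over the 9 libraries, although Il6st was higher in every P-SSC library. It was at 86.7, 93.9 and 76.7 FPKM in BM-MSCs, 89.1, 47.7 and 78.9 in P-SSCs and 133, 133 and 151 in graft P-SSCs, and every graft library was above the 6 others. The mean was 1.93-fold higher in graft P-SSCs than in P-SSCs (log2 difference 0.99 ± 0.23, limma adjusted p = 0.00839), a call kept under all 18 other settings. Against BM-MSCs the log2 difference was 0.69 ± 0.23 (adjusted p = 0.0343), which lost its call with median-of-ratios scaling (0.45, adjusted p = 0.138) and after removal of any 1 BM-MSC library (0.058 to 0.0954) or graft library (0.0788 to 0.109). Sema3f, a secreted semaphorin, was at 0 in BM-MSCs, at 0.915, 0 and 15.3 FPKM in P-SSCs and at 4.58, 3.39 and 1.49 in graft P-SSCs. It was not called in any of the 3 comparisons as reported, but was called without P-SSC replicate 3 in graft P-SSCs against P-SSCs (log2 difference 1.51, adjusted p = 0.00959) and against BM-MSCs (1.98, adjusted p = 0.000984, and 0.0482 without P-SSC replicate 2). With all libraries, the difference from BM-MSCs was also called with a pseudocount of 0.1 (adjusted p = 0.0288) and with voom on recovered fragments (0.0138).

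The Notch receptors, which are cut on contact with ligands of neighboring cells, included members called in opposite directions between P-SSCs and BM-MSCs. Notch2 (chr3:98013527-98150361) was at 1.87, 1.997 and 4.25 FPKM in BM-MSCs, 6.92, 6.96 and 16.9 in P-SSCs and 7.92, 6.00 and 7.22 in graft P-SSCs. The marrow libraries were below all periosteal libraries. Its log2 difference between P-SSCs and BM-MSCs was 1.55 ± 0.40 (limma adjusted p = 0.0184, and 1.16 with adjusted p = 0.0268 without P-SSC replicate 3), which lost its call under 3 of 18 other settings, among them the removal of BM-MSC replicate 1 (0.0662) or 2 (0.0584). Against BM-MSCs, graft P-SSCs had a log2 difference of 1.17 ± 0.40 (adjusted p = 0.0408), lost with median-of-ratios scaling (0.0607), without BM-MSC replicate 1 (0.114) or 2 (0.111), and after removal of any 1 graft library (0.0833 to 0.126).

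Notch3 was at 7.62, 7.13 and 8.01 FPKM in BM-MSCs, 0.642, 1.39 and 1.91 in P-SSCs and 1.01, 0.898 and 2.08 in graft P-SSCs. It was 5.78-fold higher in BM-MSCs than in P-SSCs by its means (log2 difference -1.93 ± 0.32, limma adjusted p = 0.00163) and 5.70-fold higher than in graft P-SSCs (-1.91 ± 0.32, adjusted p = 0.00133), and both calls were kept under all 18 other settings. Within BM-MSCs, every Notch3 value was above every Notch2 value, and within P-SSCs every Notch2 value was above every Notch3 value. Notch4, an endothelial Notch receptor, stayed at or under 1.43 FPKM in every library and was called, among the settings tried, only without P-SSC replicate 3, as given above. An exon of Notch2 overlaps Gm42820 on the same strand and an exon of Notch3 overlaps Gm17276 on the opposite strand, so their fragments are uncertain.

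The Frizzled genes encode WNT receptors, of which Fzd2 was called higher and Fzd5 lower in graft P-SSCs than in BM-MSCs. Fzd2 (chr11:102604396-102608058) was at 0.307, 0.363 and 0.0150 FPKM in BM-MSCs, 1.35, 2.01 and 12.3 in P-SSCs and 26.4, 17.8 and 8.59 in graft P-SSCs. The highest P-SSC library, replicate 3, was above the lowest graft library. Against BM-MSCs, the log2 difference of graft P-SSCs was 3.81 ± 0.64 (limma adjusted p = 0.00128), kept under all 18 other settings. Against P-SSCs it was 1.90 ± 0.64 (adjusted p = 0.0443), a call that 14 of 18 other settings lost, among them median-of-ratios scaling (0.0631) and the removal of any BM-MSC library (0.0626 to 0.067), of P-SSC replicate 1 (0.153) or 2 (0.131), or of graft P-SSC replicate 1 (0.157) or 2 (0.119). Without P-SSC replicate 3 the log2 difference was 2.68 (adjusted p = 0.000727). Between P-SSCs and BM-MSCs it was 1.90 ± 0.64 (adjusted p = 0.0583), which was called with a pseudocount of 0.1, with median-of-ratios scaling (0.0407), with quantile normalization and without P-SSC replicate 1 (0.0344), and was 1.13 without P-SSC replicate 3 (adjusted p = 0.0793).

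Fzd5 was low everywhere but higher in marrow cells, at 1.21, 2.14 and 1.56 FPKM in BM-MSCs, 0.0826, 0.0459 and 0.0322 in P-SSCs and 0.277, 0.287 and 0.306 in graft P-SSCs. The log2 difference was -1.31 ± 0.20 between P-SSCs and BM-MSCs (limma adjusted p = 0.000862) and -1.02 ± 0.20 between graft P-SSCs and BM-MSCs (adjusted p = 0.0029). Fzd5 reached 1 FPKM only in BM-MSC libraries and passed the filter through them, so these calls are descriptions. Graft and P-SSC libraries did not overlap, but their log2 difference of 0.29 ± 0.20 was not called (adjusted p = 0.286). It was called with a pseudocount of 0.1 (0.0384), with voom on recovered fragments (0.0209) and with only the libraries compared (0.0322), and it was -0.16 with quantile normalization. Fzd7, at 0.129 to 4.58 FPKM over all libraries, was not called in any comparison with all 9 libraries.

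Csf1r, which encodes the receptor of macrophage colony-stimulating factor and is a marker of macrophages, was at 2.68, 0.223 and 0 FPKM in BM-MSCs, 0.248, 0.407 and 0.835 in P-SSCs and 6.31, 5.93 and 5.57 in graft P-SSCs. Every graft library was above the 6 others. The log2 difference was 2.23 ± 0.45 between graft P-SSCs and P-SSCs (limma adjusted p = 0.00431) and 2.07 ± 0.45 between graft P-SSCs and BM-MSCs (adjusted p = 0.0057), and both calls were kept under all 18 other settings. Ptprc, the gene of the leukocyte antigen CD45, was at 0.311, 0.113 and 0.134 FPKM in graft P-SSCs, and Mpo, a gene of neutrophil granules, at 1.09, 0.975 and 1.59, and both were at 0 in every P-SSC library. Lyz2, which made up most of the summed leukocyte level in both groups, was at 49.4, 25.5 and 84.0 FPKM in graft P-SSCs and overlapped P-SSCs, where it was at 14.2, 71.9 and 51.4. Cd79b was at 0 in every P-SSC library and at 0, 0.0357 and 0.170 FPKM in graft P-SSCs. In BM-MSCs, Ptprc was at 0.326, 1.35 and 1.19 FPKM, Lyz2 at 143, 540 and 608, Cd79b at 3.34, 3.20 and 7.18 and Mpo at 292, 0 and 0. Ptprc, Lyz2 and Cd79b were thus higher in every BM-MSC library than in every graft library, the opposite order to Csf1r. The part of these genes' source in the Csf1r result was not tested. An exon of Csf1r overlaps Hmgxb3 on the opposite strand, and the sources do not say whether strand was used in counting.

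Efnb2, a membrane-bound ephrin, was at 0.258, 0 and 0 FPKM in BM-MSCs, 0.257, 0.0409 and 1.62 in P-SSCs and 3.59, 2.04 and 0.809 in graft P-SSCs. It was called higher in graft P-SSCs than in BM-MSCs (log2 difference 1.44 ± 0.41, limma adjusted p = 0.0201), a call lost without BM-MSC replicate 2 (0.063) or 3 (0.0559) or graft P-SSC replicate 1 (0.0771) or 2 (0.0599). Against P-SSCs it was called without graft P-SSC replicate 3 (adjusted p = 0.0489). Efna5, the chemokines and receptors Ccl25 and Ccrl2, the insulin-like growth factor receptor Igf1r and the cytokine Il16 were not called in any of the 3 comparisons as reported. With quantile normalization, Efna5 and Il16 were called lower in graft P-SSCs than in P-SSCs (adjusted p = 0.0408 and 0.0157) and than in BM-MSCs (0.0149 and 0.0205). Efna5 was also called against BM-MSCs with median-of-ratios scaling (0.0286), with no variance trend (0.041) and with only the libraries compared (0.0354), Ccrl2 was called in graft P-SSCs against BM-MSCs with a minimum of 5 FPKM (0.0461) and with only the libraries compared (0.0251), and Il16 against both groups with a pseudocount of 0.1 (0.0454 from P-SSCs and 0.0357 from BM-MSCs). Il16 had levels of 2.17, 3.59 and 2.599 FPKM in BM-MSCs, 2.13, 0.604 and 12.1 in P-SSCs and 0.187, 0.445 and 0.298 in graft P-SSCs, so the graft libraries were the lowest, and it was called between graft P-SSCs and P-SSCs without P-SSC replicate 2 (log2 difference -2.29, adjusted p = 0.0141), and between graft P-SSCs and BM-MSCs without P-SSC replicate 3 (log2 difference -1.52, adjusted p = 0.002) or without P-SSC replicate 2 (0.0337). Removal of 1 library also gave calls in graft P-SSCs against BM-MSCs for Efna5 (-0.88 without BM-MSC replicate 2, adjusted p = 0.0414, and -0.71 without P-SSC replicate 2 or 3, adjusted p = 0.0448 and 0.0466) and for Ccrl2 (1.63 without BM-MSC replicate 2, adjusted p = 0.0468, and 1.33 without P-SSC replicate 3, adjusted p = 0.0152). Ccl25 was called against BM-MSCs in both periosteal groups without BM-MSC replicate 1 (log2 differences 1.42 and 1.23, adjusted p = 0.0159 and 0.0215).

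Of the 3 members by name only, Tnfaip3 (chr10:19000910-19015657), which encodes the NF-kB inhibitor A20, was at 4.07, 0.651 and 2.33 FPKM in BM-MSCs, 0.838, 0.750 and 11.1 in P-SSCs and 52.8, 55.9 and 39.8 in graft P-SSCs. Every graft library was above the 6 others. The mean was 11.7-fold higher in graft P-SSCs than in P-SSCs (log2 difference 3.88 ± 0.72, limma adjusted p = 0.00263, and 4.80 without P-SSC replicate 3). Tnfaip8 was not called, and Tnfaip8l2 was too low to be tested.

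By role, 16 of 30 ligands were tested, and 5 were called higher and 4 lower in P-SSCs than in BM-MSCs, 3 higher and 2 lower in graft P-SSCs than in P-SSCs, and 5 higher and 4 lower in graft P-SSCs than in BM-MSCs. Of 25 receptors, 12 were tested, and the calls in the same order of comparisons were 3 higher and 2 lower, 4 higher and 0 lower, and 5 higher and 2 lower. Of all genes tested, 24.2%, 34.1% and 41.9% were called in these comparisons, and the roles were not tested against each other.

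Il1f5, Il19, Il25, Il27, Il1rapl1 and Wnt9b were the 6 members listed at 0 in every library. The 22 members above 0 that were not tested reached at most 5.43 FPKM and 247 fragments in a library, a value of the itch cytokine receptor gene Il31ra in P-SSC replicate 3. Csf3, which encodes the neutrophil growth factor G-CSF, was at 0 in BM-MSC and P-SSC libraries and had 18, 81 and 17 fragments in graft P-SSCs, where its mean of 1.36 FPKM was at least 12.04-fold higher than in P-SSCs against a floor of 3 fragments per library. This bound rests on replicate 2, without which it is 6.16-fold. Il18rap, a subunit of the IL-18 receptor, was also at 0 in BM-MSCs and P-SSCs and had 25, 69 and 32 fragments in graft P-SSCs, at least 13.4-fold higher than in P-SSCs by the same floor. These floors cover counting error only. Csf2rb2 had 8 fragments in each of graft P-SSC replicates 2 and 3 and was at 0 in the other 7 libraries.

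Cxcr2, the receptor of CXCL1 and CXCL2 and a neutrophil gene, had 28, 46 and 236 fragments in BM-MSCs, 0 in every P-SSC library and 2, 3 and 1 in graft P-SSCs. The receptor was near or at 0 where its ligand genes were highest. The BM-MSC libraries, which held nearly all of its fragments, also had the highest summed leukocyte and Hba-a2 levels. The part of blood cell RNA in the Cxcr2 fragments was not tested. Il2ra, a chain of the IL-2 receptor, had 99, 45 and 11 fragments in P-SSCs and at most 13 in any other library, and Fzd9 had 128, 73 and 13 in BM-MSCs and at most 26 elsewhere. Igf2, a fetal growth factor, had 27, 28 and 32 fragments in BM-MSCs, 7, 8 and 26 in P-SSCs and 0 in every graft library.

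Ccl4, Ccr3, Efna3, Fgf11, Fgf14, Fgf17, Gdf11, Il7r, Il21r, Sema3g, Tgfbr3l, Tnfrsf4 and Tnfrsf13c were the other members below the filter. Beside the genes already mentioned, exons of Fzd5, Il16, Ccl25, Tnfsf13 and Tnfaip8 overlap another gene, so 8 of the members tested have uncertain fragments. Among the members not tested, exons of Igf2, Il31ra, Csf2rb2, Efna3, Fgf14, Il27 and Tgfbr3l also overlap another gene, and their fragments are uncertain too.

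The other genes of these pathways were taken from a list of 249 ligands, receptors, inhibitors and signal transducers outside the name rule, of which 35 were in the table and 30 were tested. Between P-SSCs and BM-MSCs, 14 were called, 9 higher and 5 lower, or 46.7% of those tested, beside 24.2% of all genes (9.80% higher and 14.4% lower). The called genes with the highest levels were Sfrp2, a secreted WNT inhibitor with a log2 difference of 5.68, the scavenging chemokine receptors Ackr3 (7.41) and Ackr4 (-4.68), Porcn, the enzyme that acylates WNTs (-3.23), and Irak3, an inhibitor of interleukin-1 and Toll-like receptor signaling (1.67). Sfrp2 was at 42.7, 55.1 and 1551 FPKM in P-SSCs, so replicate 3 stood apart there as well, and its log2 difference was 4.03 without that library (adjusted p = 6.01e-06), 6.603 without replicate 1 and 6.42 without replicate 2. The log2 difference of Ackr3 was 8.21 without BM-MSC replicate 1 and 6.55 without BM-MSC replicate 3, and the call of Irak3 was lost without BM-MSC replicate 2 (adjusted p = 0.0693) or 3 (0.066).

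Between graft P-SSCs and P-SSCs, 10 of the 30 were called, 5 in each direction, or 33.3%, which is close to the 34.1% of all genes. The called genes with the highest levels were Id3, a BMP target (log2 difference -1.65), Ackr4 (-3.83), the receptor gene Egfr (-1.04), its ligand Hbegf (1.51) and Smad1, a transducer of BMP signals (2.91). Smad1 was at 1.57, 0.479 and 21.6 FPKM in P-SSCs, and its log2 difference was 4.09 without P-SSC replicate 3 (adjusted p = 0.000222), while its call was lost without P-SSC replicate 1 (2.52, adjusted p = 0.112) or 2 (2.12, adjusted p = 0.11) or any 1 graft library (0.0727 to 0.0944). The call of Hbegf was lost without any 1 graft library as well (0.0772 to 0.0785). Without P-SSC replicate 3, 19 of the 30 were called, beside 45.8% of all genes. Between graft P-SSCs and BM-MSCs, 18 were called, 10 higher and 8 lower, or 60%, beside 41.9% of all genes, and those with the highest levels were Id3 (-1.91), Sfrp2 (8.35), Ackr3 (5.73), Gas6, a ligand of TAM receptors (-3.83), and Ackr4 (-8.51). The call of Gas6 was lost without any 1 BM-MSC library (adjusted p = 0.0595 to 0.0789) or graft library (0.0597 to 0.0677). Gas6 was at 441, 286 and 284 FPKM in BM-MSCs, 10.8, 9.13 and 432 in P-SSCs and 22.3, 20.8 and 23.7 in graft P-SSCs. Its BM-MSC and graft libraries did not overlap, and P-SSC replicate 3, which enters neither mean, enters the shared estimate of spread. The log2 difference of Ackr3 was 6.53 without BM-MSC replicate 1 and 4.87 without BM-MSC replicate 3. The median log2 difference of the 30 genes was 0.41, 0.13 and 0.11 in the 3 comparisons in this order.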

How the data were processed

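RNA of sorted cells was made into poly-A libraries and sequenced on an Illumina NovaSeq. According to the submitters' processing notes and methods, reads were handled with CASAVA and fastp, mapped to GRCm38 with STAR 2.6.1d and counted with featureCounts 1.5.0-p3, and the authors deposited FPKM, fragments scaled to gene length and library total, in 1 table. The authors made their own comparisons with DESeq2 on counts. The deposited values are FPKM, so limma on log values was the test here, and fragments recovered from the FPKM served only an alternative. Whether strand was used in counting is not given in the sources used here.

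The length behind each FPKM was the mean transcript length of GENCODE M21, rounded down, for 3440 of 3609 genes above 0 (95.3%), and the smallest fitting whole length for the rest. With it, all values came out as whole fragments within 1e-05, and these gave the fragments and library totals reported. Every column of values was used.

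FPKM were changed to log2(FPKM + 1), and 1948 genes with at least 1 FPKM in at least 3 of 9 libraries were fitted with limma 3.58.1 (R 4.3.3, lmFit, contrasts, eBayes with trend) in 1 fit of all libraries, with 1 mean per group and no block. Benjamini-Hochberg adjusted p-values cover all 1948 genes. Tables were handled with pandas 2.3.3 and figures drawn with matplotlib 3.10.9. The fit was tested on simulated data.

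Members that were called, whose highest group averaged 10 FPKM or more and whose libraries did not overlap in that comparison, and the 5 members with the highest mean level, are given in every library, and other members named with fewer values or, where they were chosen after their values were seen (Csf1r, Efnb2, Fzd5, Gdf15, Il16, Notch3, Sema3f and the members not tested), with values as well. Of the list of other pathway genes, at most 5 called genes with the highest level are named per comparison. The members and lists, and the marker lists, were chosen with earlier results of these data known. Promoters of Cxcl1, Cxcl2 and Fgf18 were chosen by rule among the ligands with the largest differences. Protein sequences were not used here. Alternatives changed the pseudocount, filter, scaling, libraries in the fit, block and trend, left out each library in turn and, added after seeing the data, used voom on the recovered fragments.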

Additional observations from a re-analysis of the deposited data

How the results depend on the processing

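Of the 43 calls of members, 31 were kept under each of the 18 other settings in which the gene was tested, 12 were lost under at least 1 of them and 0 turned direction. Leaving out each library in turn gave 12 to 15 members called between P-SSCs and BM-MSCs, 6 to 14 between graft P-SSCs and P-SSCs and 15 to 25 between graft P-SSCs and BM-MSCs, beside 20.5% to 30.4%, 23.1% to 45.8% and 28.5% to 53.3% of all genes. The lowest value, 6, came without P-SSC replicate 1 and also without graft P-SSC replicate 2, and the highest values, 14 and 25, without P-SSC replicate 3, while 15 came without P-SSC replicate 2 or 3 and is also the count with all libraries. The cause was not tested. For the other pathway genes the same removals gave 12 to 19, 7 to 19 and 12 to 21 calls. With voom on recovered fragments, 14, 8 and 20 members were called in the 3 comparisons in this order, beside 23.3%, 34.3% and 41.2% of all genes, and with a minimum of 5 FPKM, where 18 members were tested, 11, 9 and 14, beside 27.0%, 42.6% and 51.8%.

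Libraries with the same replicate number showed no sign of pairing. With 3 libraries per group this check cannot exclude pairing, and pairing across different numbers was not tested. Same-numbered libraries of different groups had deviations from their group means that correlated at -0.434 to 0.132 over the genes tested, and the best match of a library in another group had its own number in 3 of 18 cases. With the replicate block, 14, 8 and 19 members were called in the 3 comparisons, beside 22.6%, 31.9% and 38.8% of all genes, and 14, 10 and 15 of the other pathway genes.

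Depth limits low members: at 3 libraries per group and a few fragments per library, an absence of a call does not show that levels were alike.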
